A study of Mus musculus with 4 samples.

Results

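The genes described here are 10 components of the cyclic AMP (cAMP) pathway that holds the mouse oocyte in prophase of meiosis I. They were chosen by symbol, as Gpr3, Adcy3, Adcy9, Pde3a, Prkaca, Prkacb, Prkar1a, Prkar2a, Prkar2b and Akap1, and all 10 are among the 16861 genes listed in each library. Their RNA was measured in 2 libraries of NSN oocytes and 2 libraries of SN oocytes. These are the 2 chromatin configurations of the germinal vesicle (GV) oocyte, a fully grown oocyte that has not yet resumed meiosis. NSN and SN stand for a nucleolus that is not surrounded, or is surrounded, by compact chromatin. The comparison asked whether the transcripts of this pathway differ in abundance between these configurations.

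Oocytes came from the antral follicles of female C57BL/6J mice aged 3 weeks, with cumulus cells removed by pipetting. Both groups were stained with a Hoechst dye for DNA and sorted under a fluorescence microscope in medium with 2.5 µM milrinone, an inhibitor of PDE3 phosphodiesterases, so both had been exposed to a drug that acts on the product of one of these genes. Each library was made from 15 pooled oocytes by Smart-seq2, a method that primes cDNA on poly(A) tails and amplifies it, here over 18 PCR cycles. The labels do not say whether the libraries of a configuration came from separate animals, so p-values measure only the spread between these libraries, which may be technical.

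Cyclic AMP is the signal that keeps a GV oocyte arrested. The receptor GPR3, active without an added ligand, drives the stimulatory G protein, adenylyl cyclases such as ADCY3 make cAMP, and the phosphodiesterase PDE3A breaks it down. cAMP binds the regulatory subunits of protein kinase A (PKA) and frees its catalytic subunits, which keep the kinase WEE2 active and the phosphatase CDC25B inactive, so that CDK1 stays off. Cyclic GMP from the granulosa cells reaches the oocyte through gap junctions and inhibits PDE3A, and anchoring proteins (AKAPs) tether PKA to places in the cell.

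Library totals were 17408945 and 17911559 read pairs (NSN) and 17069772 and 17998361 (SN). FPKM relates the read pairs of a gene to its length and to the library total. At these totals, an FPKM of 0.167 to 0.176 stands for 3 read pairs per 1 kb of gene, a floor for counting error alone. All 11 oocyte markers examined were listed, and their summed FPKM was 21579 and 20475 in NSN against 14808 and 14149 in SN. By the thresholds given below and on the deposited FPKM, 7 of the 11 were called lower in SN, beside 1.98% of all genes tested. Kit and Oosp1 changed in the other direction and were not called. Of 12 granulosa and cumulus cell markers, 8 were listed, with a summed FPKM of 8.44 and 12.5 in NSN and 12.2 in both SN libraries. The highest of the 8 was Cyp19a1, at 5.81 and 8.06 in NSN and 8.38 and 8.22 in SN, near the FPKM of Gpr3 and Pde3a. Amh, Amhr2, Foxl2 and Npr2 were not listed, and none of 4 blood markers was listed. How much granulosa cell RNA the libraries hold was not tested. In NSN, 39.8% and 38.7% of the read pairs fell on the 100 most abundant genes, and in SN 35.4% and 35.3%, and the part of this shift in the results below was not tested. FPKM is a share of the library, so more RNA of a gene and less RNA of other genes cannot be told apart, and the median log2 fold change of the 11672 genes tested was 0.14 in favour of SN. Changes below are therefore given on the deposited FPKM and, for each gene tested whose change is printed, also after median scaling, in which every library is divided by its median ratio to the mean of the genes tested, and which brings that median to 0.0051.

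None of the 9 members tested passed both thresholds for a call, which were a Benjamini-Hochberg adjusted p below 0.05 in limma and a change of 1.2-fold or more, while 7.93% of all genes tested did, 5.95% higher and 1.98% lower in SN. The catabolic enzyme Pde3a, the type II regulatory subunit Prkar2a and the cyclase Adcy9 had higher FPKM in both SN libraries than in either NSN library, and Gpr3 and the type I regulatory subunit Prkar1a had lower FPKM in both, on either scaling. The catalytic subunits Prkaca and Prkacb and the regulatory subunit Prkar2b overlapped between the groups. At an unadjusted p under 0.05, 2 of the 9 members differed (Pde3a and Prkar2a, both higher in SN), beside 31.7% of all genes tested. By limma without adjustment these p-values were 0.0137 and 0.0213.

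In all, the groups did not overlap for 6 of the 10 members, all of them among the 9 tested, beside 62.6% of the genes tested. The members' share was thus near that of the background. SN was above NSN for 4 of them (44.8% of all genes tested) and below for 2 (17.8%). After median scaling the groups again did not overlap for 6 members (59.5% of all genes tested), 3 above (29.4%) and 3 below (30.1%). Akap1 had left the list and Adcy3 had joined those below. Adcy3, with 11 to 16 read pairs, is not among the genes tested, so this count and its background are of unlike sets. With totals that leave out the 100 most abundant genes, 5 members did not overlap, beside 59.8% of all genes. The median log2 fold change of the 9 members was 0.25 against 0.14 for all genes, and 0.10 against 0.0051 after median scaling. The smallest p that an exact two-sided permutation test can give with 2 libraries against 2 is 0.333, so no such test was run.

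**Figure D1:**
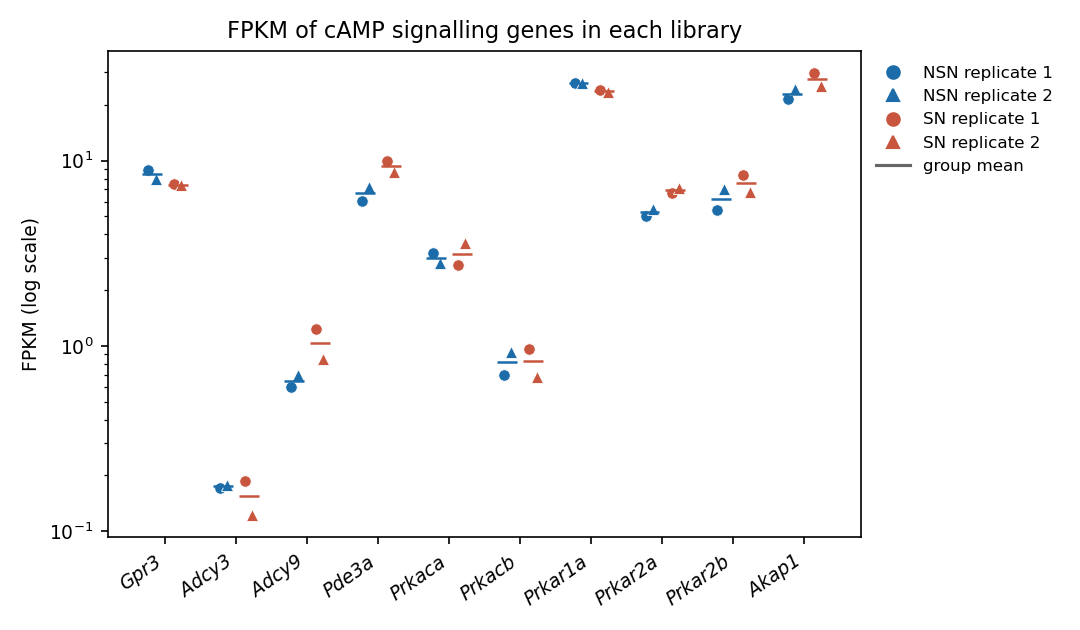
FPKM (log axis) of the 10 cAMP signalling genes in each library, with circles for replicate 1, triangles for replicate 2, blue for NSN and red for SN, and a line at the mean of each group. Akap1 and Prkar1a sit above an FPKM of 20 in every library, Adcy3 sits below 0.2, and the groups are apart for Gpr3, Adcy9, Pde3a, Prkar1a, Prkar2a and Akap1.

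Gpr3 (ENSMUSG00000049649.10, chr4:132936650-132940688, minus strand, GRCm39) encodes the Gs-coupled receptor at the head of the pathway. Its FPKM was 8.89 and 7.98 in NSN and 7.47 and 7.36 in SN, from 336 to 408 read pairs. Both SN libraries were below both NSN libraries, with means of 8.44 ± 0.641 in NSN and 7.41 ± 0.0787 in SN (SD, n = 2). Fold changes here and below are of SN over NSN after 0.5 was added to each FPKM, so those of genes with low FPKM are understated. For Gpr3 the log2 fold change was -0.17 (SE 0.11, 95% interval -0.45 to 0.10, adjusted p = 0.335, limma). After median scaling it was -0.32 (adjusted p = 0.148, limma). Of its annotated exons, 6.67% of the bases also lie in exons of Cd164l2, and without strand the read pairs of such bases cannot be told apart.

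The adenylyl cyclases were, together with Prkacb, the members with the lowest FPKM. Adcy3 (ENSMUSG00000020654.17, chr12:4182969-4263527, plus strand), the cyclase named above, had an FPKM of 0.171 and 0.178 in NSN and 0.186 and 0.122 in SN, from only 11 to 16 read pairs per library. The groups overlapped, and Adcy3 was the member that did not reach the mean FPKM of 0.5 needed for a test. In a fit of all listed genes, its log2 fold change was -0.05 (adjusted p = 0.834, limma). So few read pairs limit what can be said of Adcy3, and 19.0% of its exonic bases are shared with Cenpo on the other strand. Adcy9 (ENSMUSG00000005580.13, chr16:4102752-4238428, minus strand), another membrane-bound cyclase, was at 0.597 and 0.698 in NSN and 1.23 and 0.845 in SN, from 54 to 109 read pairs. Of its exonic bases, 12.0% are shared with other genes. The SN libraries lay above the NSN libraries but differed from each other by more than the NSN pair did, and the means were 0.648 ± 0.0717 and 1.04 ± 0.272 (SD, n = 2). The log2 fold change of Adcy9 was 0.41 (SE 0.20, 95% interval -0.07 to 0.89, adjusted p = 0.208, limma), and 0.32 after median scaling. On read pairs (limma-voom, which uses no added 0.5 FPKM) it was 0.65 (adjusted p = 0.0949), and without SN replicate 1 it was 0.23 (adjusted p = 0.577, limma).

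Pde3a (ENSMUSG00000041741.12, chr6:141194888-141453174, plus strand) encodes the main cAMP phosphodiesterase of the oocyte, and its inhibition alone is enough to hold the arrest in culture. Its FPKM was 6.06 and 7.25 in NSN and 9.99 and 8.64 in SN, from 1297, 1597, 2098 and 1913 read pairs. Both SN libraries were above both NSN libraries, with means of 6.65 ± 0.843 and 9.32 ± 0.955 (SD, n = 2). SN exceeded NSN by 0.46 on the log2 scale (SE 0.14, 95% interval 0.13 to 0.79), a fold of 1.37, with an adjusted p of 0.0819 (limma). Of the genes tested, 85.9% had a lower log2 fold change. After median scaling it was 0.31 (95% interval 0.01 to 0.61, adjusted p = 0.170, limma).

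The call for Pde3a turned on how the test was set up. When only the 5519 genes averaging an FPKM of 5 or more were tested, it passed both thresholds (adjusted p = 0.0439, limma), as did 27.1% of those 5519 genes. On read pairs with library totals it also passed (log2 fold change 0.49, adjusted p = 0.00932, limma-voom), where 19.8% of all genes did, and with median scaling of the read pairs it did not (0.33, adjusted p = 0.0556). Without NSN replicate 2, the NSN library with the higher value, it passed (0.58, adjusted p = 0.0431, limma), where 14.4% of all genes did. Leaving out any of the other libraries gave 0.34 to 0.56 with adjusted p from 0.146 to 0.277. A correction for gene length, in which a smooth trend of each library on the recovered length is removed, brought Pde3a, the longest of the members (12302 bases), from 0.46 to 0.18 (adjusted p = 0.355, limma). The same correction took Adcy9 from 0.41 to 0.25 (adjusted p = 0.439).

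The genes of the catalytic subunits of PKA overlapped between the groups. Prkaca (ENSMUSG00000005469.12, chr8:84699575-84723091, plus strand), which encodes the α subunit, had an FPKM of 3.19 and 2.80 in NSN and 2.73 and 3.57 in SN, from 116 to 160 read pairs. Prkacb (ENSMUSG00000005034.17, chr3:146435311-146518793, minus strand), for the β subunit, was lower at 0.694 and 0.932 in NSN and 0.967 and 0.682 in SN, from 63 to 87 read pairs. In each of them 1 SN library was the highest and the other SN library the lowest of the 4. The log2 fold change of Prkaca was 0.06 on the deposited FPKM (95% interval -0.34 to 0.46, adjusted p = 0.843, limma) and turned to -0.077 after median scaling. That of Prkacb was 0.01 (95% interval -0.48 to 0.50, adjusted p = 0.978, limma) and turned to -0.085 after median scaling. The intervals allow folds of SN over NSN of 0.788 to 1.37 for Prkaca and 0.719 to 1.41 for Prkacb. For Prkaca, 10.8% of the exonic bases are shared with neighbouring genes.

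The log2 fold changes of the regulatory subunit genes had both signs, and none of these genes passed both thresholds by limma on the FPKM. On neither the deposited nor the median-scaled FPKM did the intervals of Prkar1a and Prkar2a both exclude 0. Prkar1a (ENSMUSG00000020612.18, chr11:109513434-109560633, plus strand) encodes RIα, the subunit of type I PKA, which is largely soluble. Its FPKM was 26.3 and 26.4 in NSN and 24.0 and 23.5 in SN, from 1669 to 1922 read pairs. Both SN libraries were below both NSN libraries, which were almost equal to each other (means 26.4 ± 0.0106 and 23.8 ± 0.384, SD, n = 2). The log2 fold change of Prkar1a was -0.15 (SE 0.09, 95% interval -0.36 to 0.06, adjusted p = 0.287, limma) and -0.30 after median scaling (95% interval -0.50 to -0.09, adjusted p = 0.0897). On read pairs with median scaling it passed both thresholds (-0.30, adjusted p = 0.0423, limma-voom), as did 14.8% of all genes, whereas with library totals it was -0.15 (adjusted p = 0.275). Median scaling of the FPKM called none of the members, beside 2.2% of all genes.

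Prkar2a (ENSMUSG00000032601.15, chr9:108566513-108627641, plus strand) encodes RIIα, a subunit of type II PKA, the form that AKAPs mainly, though not only, anchor. It had an FPKM of 5.04 and 5.51 in NSN and 6.73 and 7.09 in SN, from 436, 490, 570 and 634 read pairs. The SN libraries were above the NSN libraries by more than the replicates of either group were apart (means 5.28 ± 0.329 and 6.91 ± 0.261, SD, n = 2). For Prkar2a the log2 fold change was 0.36 (SE 0.12, 95% interval 0.07 to 0.65), a fold of 1.28, with an adjusted p of 0.101 (limma), and 0.22 after median scaling (adjusted p = 0.258). With the length correction it was 0.20 (adjusted p = 0.287), and that of Prkar1a was -0.26 (adjusted p = 0.118, limma). On read pairs with library totals Prkar2a passed both thresholds (0.39, adjusted p = 0.0391, limma-voom), as Pde3a did. Prkar2b (ENSMUSG00000002997.17, chr12:32008448-32111363, minus strand), which encodes RIIβ, was at 5.41 and 7.06 in NSN and 8.42 and 6.80 in SN. Its replicates were further apart (means 6.24 ± 1.17 and 7.61 ± 1.15, SD, n = 2), and NSN replicate 2 lay above SN replicate 2. That of Prkar2b was 0.27 (SE 0.17, 95% interval -0.13 to 0.67, adjusted p = 0.308, limma), and 0.13 after median scaling, 0.09 without NSN replicate 1 and 0.45 without NSN replicate 2. Neither Prkar2a nor Prkar2b shares annotated exonic bases with another gene.

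**Figure D2:**
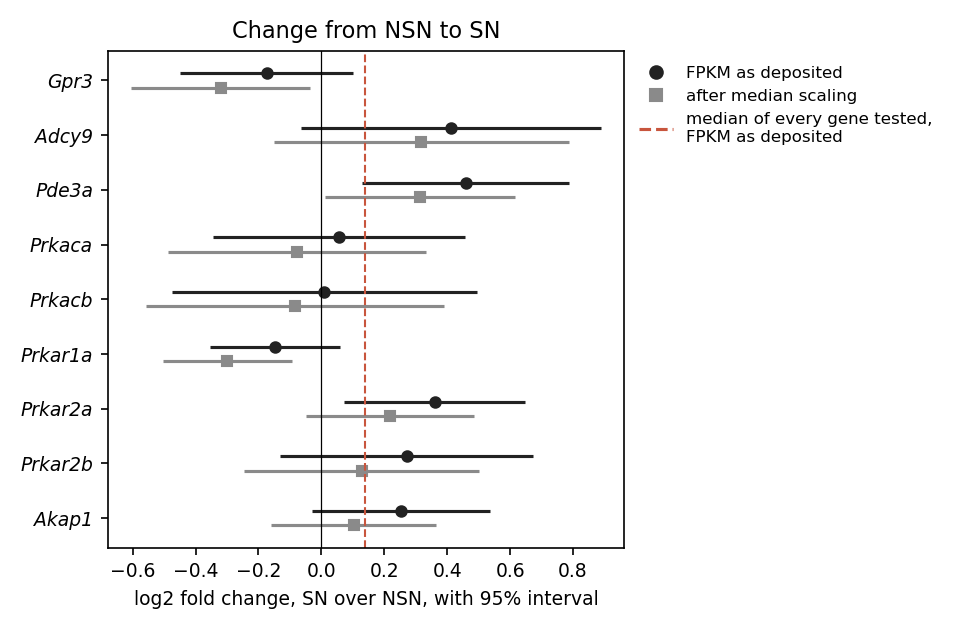
Log2 fold change (SN over NSN) of the 9 members tested, with 95% intervals from limma, on the deposited FPKM (black circles) and after median scaling (grey squares), beside the median of all genes tested (dashed line at 0.14). The intervals of Pde3a and Prkar2a lie above 0 on the deposited FPKM, that of Pde3a also after median scaling, and those of Gpr3 and Prkar1a lie below 0 only after it.

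The promoters of a type I and a type II regulatory subunit, Prkar1a and Prkar2a, are shown with that of Gpr3. The log2 fold changes of these subunits had opposite signs, and neither was called by limma on the FPKM. Promoters are shown because cAMP also acts on genes through the cAMP response element, the motif TGACGTCA bound by factors of the CREB family. The windows are from RefSeq on GRCm38.p6, another build than that of the FPKM, and run from 250 bases before to 50 bases after an annotated start, on the strand of the gene. In each, the core TGACG, or CGTCA where it is read on the other strand, is in capitals. Positions are those of the first capital base, counted from the start, with 0 as the first transcribed base. The Prkar1a window is 1 of 6 annotated starts (chr11:109650699-109650998, plus strand), with TGACG at -187 and the full element at -49. The Prkar2a window is its only listed start (chr9:108691893-108692192, plus strand), with CGTCA at -4. The Gpr3 window (chr4:133212487-133212786, minus strand) has CGTCA at -196 and -40.
Prkar1a: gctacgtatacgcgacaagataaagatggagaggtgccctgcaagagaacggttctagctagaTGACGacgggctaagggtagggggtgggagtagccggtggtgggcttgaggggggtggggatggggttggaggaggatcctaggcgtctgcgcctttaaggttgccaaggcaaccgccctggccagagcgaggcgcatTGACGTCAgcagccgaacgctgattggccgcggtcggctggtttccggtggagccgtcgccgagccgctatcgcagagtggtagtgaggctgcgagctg
Prkar2a: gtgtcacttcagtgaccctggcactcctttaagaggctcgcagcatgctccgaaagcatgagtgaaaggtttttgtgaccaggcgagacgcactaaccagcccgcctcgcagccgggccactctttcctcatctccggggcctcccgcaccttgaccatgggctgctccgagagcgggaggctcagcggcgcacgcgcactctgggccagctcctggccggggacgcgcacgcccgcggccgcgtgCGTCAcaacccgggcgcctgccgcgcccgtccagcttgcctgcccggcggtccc
Gpr3: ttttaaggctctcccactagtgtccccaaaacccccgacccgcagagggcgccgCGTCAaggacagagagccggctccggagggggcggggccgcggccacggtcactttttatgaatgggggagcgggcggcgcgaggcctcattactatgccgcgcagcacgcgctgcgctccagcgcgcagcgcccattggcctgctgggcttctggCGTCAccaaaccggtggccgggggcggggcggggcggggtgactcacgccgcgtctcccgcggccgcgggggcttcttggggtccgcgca

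Of the members, 9 were matched to 21 such windows. Pde3a had no entry in the promoter set, so its promoter was not examined. The full element was found in 2 of the 21, both at overlapping starts of Prkar1a, and in 1.79% of all 32851 promoters of the same length. The shorter core, which every full element also contains, was found in 8 of the 21 windows, belonging to Gpr3, Adcy9, Prkaca, Prkacb, Prkar1a and Prkar2a, and in 20.8% of all promoters. Genes with the core were thus among those with higher FPKM in SN (Adcy9, Prkar2a), among those with lower FPKM in SN (Gpr3, Prkar1a) and among those that overlapped (Prkaca, Prkacb).

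A ratio of members within a library does not depend on how the libraries are scaled. The FPKM of the type II regulatory subunits (Prkar2a plus Prkar2b) relative to the type I subunit (Prkar1a) was 0.397 and 0.477 in NSN and 0.631 and 0.592 in SN. Both SN libraries were above both NSN libraries, and the mean ratio was 1.40-fold higher in SN (0.437 ± 0.0566 in NSN and 0.611 ± 0.0274 in SN, SD, n = 2). On the log2 scale the difference was 0.49, and it stayed between 0.36 and 0.62 when single libraries were left out. Other gene lengths gave 0.48 to 0.49, but each length is the same in every library. They could therefore change only the weight of Prkar2a against Prkar2b. No test was run on this ratio, and the share of ratios that do not overlap was not computed over all genes. Of single genes tested, 62.6% did not overlap between the groups. The balance of all regulatory to all catalytic subunits was 9.48 and 10.4 in NSN and 10.6 and 8.78 in SN, and the groups overlapped. Prkacb relative to Prkaca was 0.218 and 0.332 in NSN and 0.354 and 0.191 in SN. Pde3a relative to the cyclases Adcy3 plus Adcy9 was 7.88 and 8.27 in NSN and 7.06 and 8.94 in SN. For these 3 ratios the log2 differences were -0.04, -0.05 and -0.02, each smaller than the spread between replicates.

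**Figure D3:**
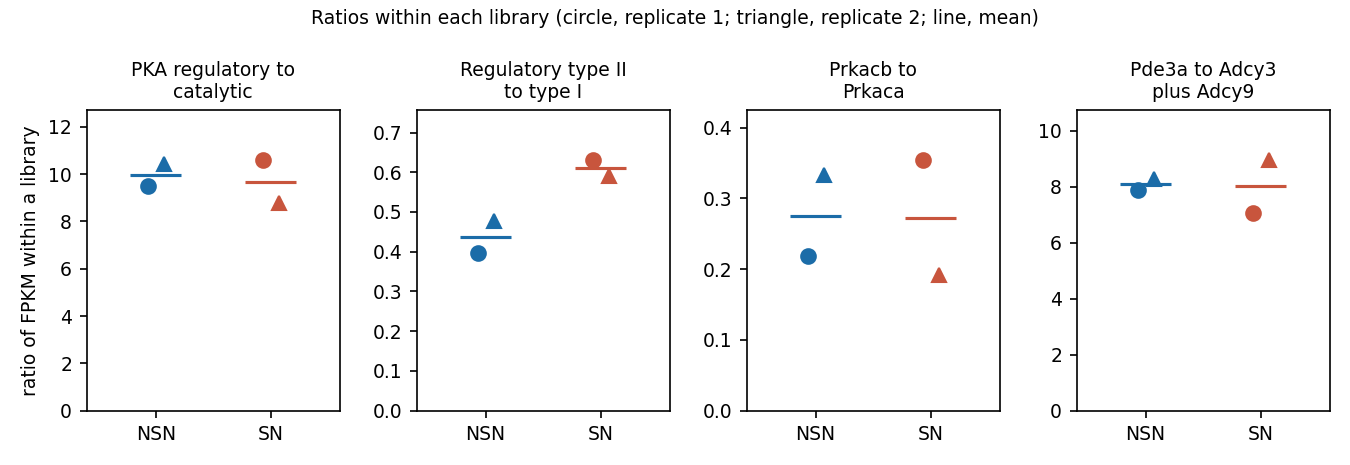
Ratios of FPKM between members within each library, each axis starting at 0, with circles for replicate 1, triangles for replicate 2 and lines for group means. The ratio of type II to type I regulatory subunits is 0.397 and 0.477 in NSN and 0.631 and 0.592 in SN, whereas the groups overlap for the other 3 ratios.

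Akap1 (ENSMUSG00000018428.17, chr11:88721610-88755453, minus strand) encodes an anchoring protein of the outer mitochondrial membrane that binds PKA. Its FPKM was 21.5 and 24.4 in NSN and 29.8 and 25.2 in SN, from 1492 to 2025 read pairs. On the deposited FPKM both SN libraries were above both NSN libraries (means 23.0 ± 2.01 and 27.5 ± 3.23, SD, n = 2), and after median scaling the groups overlapped. On the log2 scale Akap1 was higher by 0.25 (SE 0.12, 95% interval -0.03 to 0.54, adjusted p = 0.193, limma), by 0.10 after median scaling and by 0.15 with the length correction.

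By mean FPKM over the 4 libraries, which is per length, Akap1 (25.2) and Prkar1a (25.1) stood highest and lay at the 87.0 and 86.9 percentile of the listed genes. Pde3a (7.98), Gpr3 (7.92), Prkar2b (6.92) and Prkar2a (6.09) followed, then Prkaca (3.07), Adcy9 (0.842), Prkacb (0.819) and Adcy3 (0.164). Neighbours in this order overlapped in their ranges over the libraries, except that Prkar1a was above Pde3a, Prkar2a above Prkaca, Prkaca above Adcy9 and Prkacb above Adcy3 in all 4 libraries. The order among the middle genes depended on the length used. The length recovered from the FPKM of Gpr3 was 2636 bases, whereas its canonical transcript in the annotation has 1116, and by the latter its mean would be 18.7 and the third highest. By that length Prkacb (0.961) would also be above Adcy9 (0.554).

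Beyond these 10 genes, 97 others of the pathway were listed by role, of which 74 were in the libraries and 46 had enough FPKM for a test. Of the 46, 2 passed both thresholds (limma), both higher in SN, beside the 7.93% of all genes above. The median log2 fold change of the 46 was 0.20 against 0.14 for all genes, and 0.09 against 0.0051 after median scaling. After median scaling of the FPKM neither passed. At an unadjusted p under 0.05 (limma), 14 of the 46 were higher and 3 lower in SN, beside 31.7% of all genes in either direction. On read pairs, 10 were called higher and 3 lower with library totals, beside 19.8% of all genes, and 4 and 4 with median scaling, beside 14.8% (limma-voom).

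None of 2 other receptor genes tested was called by limma or on read pairs. By deposited FPKM the highest receptor was Adora2b, a Gs-coupled adenosine receptor, which Gpr3 would exceed by canonical length, at 13.4 and 8.38 in NSN and 9.21 and 8.82 in SN (log2 fold change -0.23, adjusted p = 0.483, limma, and -0.37 after median scaling). Its difference rested on NSN replicate 1, without which it turned to 0.10, and without NSN replicate 2 it was -0.55 (adjusted p = 0.0345). Of 12 G protein genes tested, Gng5, a γ subunit, was called higher in SN, at 0.914 and 0.909 in NSN and 2.37 and 1.97 in SN (log2 fold change 0.92, SE 0.17, adjusted p = 0.0383, limma). Without NSN replicate 1, SN replicate 1 or SN replicate 2 the call ended (0.81 to 1.03). After median scaling it was 0.80 (adjusted p = 0.0576, limma), and on read pairs it was called with either scaling (adjusted p = 0.00470 and 0.0140, limma-voom). The value is also uncertain, since 96.9% of its exonic bases also lie in exons of Rpf1 or Spata1 on the other strand. The β subunit gene Gnb4 had 74.6 and 68.8 in NSN and 56.0 and 56.9 in SN (-0.34, adjusted p = 0.0538, limma, and -0.50 after median scaling), and on read pairs it was called lower with either scaling. It shares 38.8% of its exonic bases with other genes. The stimulatory subunit Gnas, the direct partner of GPR3, overlapped on the deposited FPKM (4.83 and 5.18 in NSN, 4.85 and 4.72 in SN), with a log2 fold change of -0.06. After median scaling both SN libraries were below both NSN libraries for Gnas, with a log2 fold change of -0.20. The recovered length of Gnas was 10505 bases, against 3761 for its canonical transcript, so its FPKM level depends on the length used. Of its exonic bases, 9.26% are shared with Gnasas1 on the other strand. Rgs2, which damps G protein signals, had the highest FPKM of these genes, with means of 504 in NSN and 489 in SN (log2 fold change -0.04, adjusted p = 0.699, limma, and -0.20 after median scaling).

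Of the other adenylyl cyclases, 3 were tested and none was called. Adcy8 was the highest, with means of 1.86 and 1.94 and overlapping groups (log2 fold change 0.05, adjusted p = 0.857, limma, and -0.073 after median scaling). None of the 3 had an unadjusted p under 0.05 or was called on read pairs. Among 7 other phosphodiesterases tested, Pde3b, the paralogue of Pde3a and likewise a target of milrinone, was called higher in SN. Its FPKM was 4.21 and 4.23 in NSN and 6.59 and 6.13 in SN (log2 fold change 0.54, SE 0.12, adjusted p = 0.0479, limma), and after median scaling it was 0.40 (adjusted p = 0.0928). Leaving out any of the 4 libraries ended that call, with log2 fold changes of 0.49 to 0.59, and with the length correction it was 0.33 (adjusted p = 0.134). The cAMP-specific Pde8a had 3.57 and 4.99 in NSN and 7.55 and 6.82 in SN (0.70, adjusted p = 0.0548, limma, and 0.56 after median scaling), and Pde4d had 0.692 and 1.07 in NSN and 1.63 and 1.84 in SN (0.71, adjusted p = 0.0690, and 0.60 after median scaling). On read pairs Pde3b, Pde4d and Pde8a were called higher in SN with either scaling (limma-voom). By contrast, Pde1b, whose enzyme is activated by calcium, had 3.26 and 3.72 in NSN and 2.49 and 2.02 in SN (-0.54, adjusted p = 0.0783, limma, and -0.67 after median scaling), and it was called lower on read pairs with either scaling. However, 35.4% of the exonic bases of Pde1b are shared with Ppp1r1a on the other strand.

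Of 3 other PKA genes tested none was called, and 1 had an unadjusted p under 0.05 (limma). The inhibitor Pkig had 15.2 and 14.3 in NSN and 17.6 and 19.2 in SN (log2 fold change 0.31, adjusted p = 0.0950, limma, and 0.16 after median scaling), and the inhibitor Pkib had 3.36 and 1.95 in NSN and 1.79 and 1.70 in SN (-0.45, adjusted p = 0.227, and -0.58 after median scaling). None of the 9 other anchoring protein genes tested was called by limma, with 5 at an unadjusted p under 0.05 (31.7% of all genes), and the log2 fold change of all 9 was above 0 on both scalings, from 0.20 to 0.48 on the deposited FPKM. Their median was 0.33, and 0.20 after median scaling, while 7782 of the 11672 genes tested were above 0 on the deposited FPKM and 5910 after median scaling. Both SN libraries were above both NSN libraries for 8 of the 9, beside 44.8% of all genes. Their recovered lengths ran from 2102 to 13123 bases, and their values with the length correction are not given here. On read pairs 4 of them (Akap7, Akap8, Akap9 and Arfgef2) were called higher with library totals, where 19.8% of all genes were called in either direction, and 0 with median scaling (limma-voom). Akap8, an anchoring protein of the nuclear matrix, was at 2.37 and 2.48 in NSN and 3.72 and 3.47 in SN (0.48, adjusted p = 0.0726, limma, and 0.35 after median scaling).

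None of 8 tested PKA substrates and cAMP effectors was called, and 1 had an unadjusted p under 0.05 (limma), with a median log2 fold change of -0.04. On read pairs Rapgef4, which encodes the cAMP sensor EPAC2, was called higher with library totals (log2 fold change 0.53 by limma on FPKM, and 0.39 after median scaling), and Wee2 lower with median scaling (limma-voom). The kinase Wee2 had the highest FPKM among them, 366 and 359 in NSN and 332 and 313 in SN (-0.17, adjusted p = 0.158, limma, and -0.32 after median scaling). The phosphatase Cdc25b had 2.71 and 3.08 in NSN and 2.56 and 2.37 in SN (-0.19, adjusted p = 0.393, and -0.32 after median scaling). Both were lower in each SN library than in either NSN library. Gja4, which encodes connexin 37, the gap junction protein of the oocyte, had 469 and 412 in NSN and 351 and 366 in SN (-0.29, adjusted p = 0.0771, limma, and -0.45 after median scaling), and on read pairs it was called lower with either scaling. However, 31.8% of its exonic bases are shared with another gene.

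**Figure D4:**
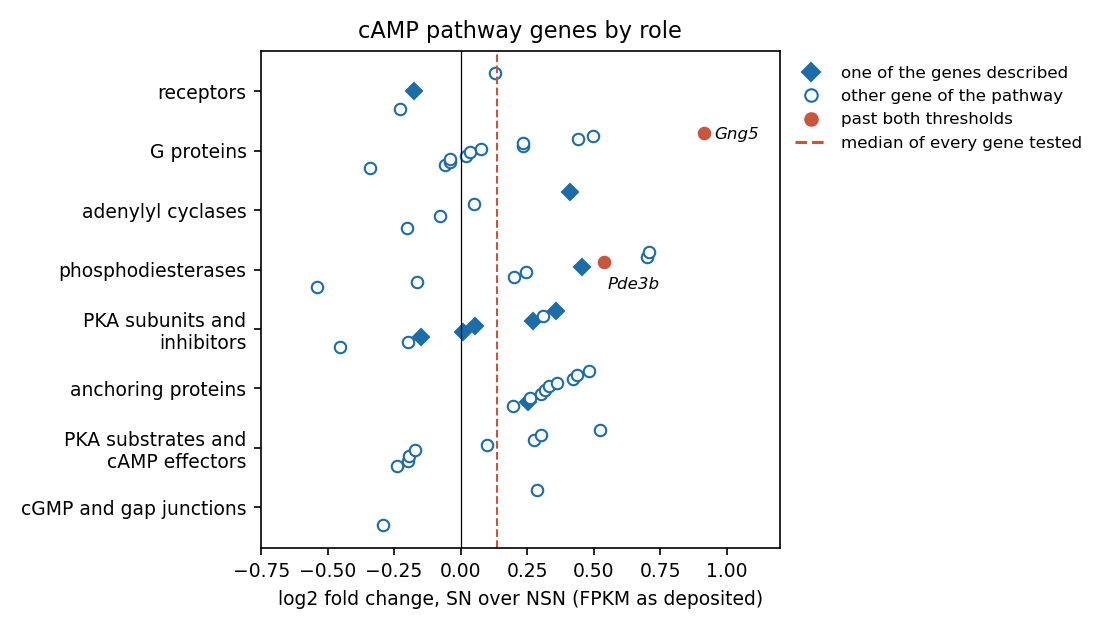
Log2 fold change (SN over NSN, deposited FPKM) of each cAMP pathway gene tested, grouped by role, with filled diamonds for the members, open circles for other genes, red for the 2 genes past both thresholds (Gng5 and Pde3b) and a dashed line at the median of all genes tested (0.14). The anchoring proteins all lie above 0 (0.20 to 0.48), whereas every other group, of 2 to 12 genes tested, has genes on both sides of 0.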

How the data were processed

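The members and gene lists were chosen with earlier results of these data known. Per the methods, the authors trimmed reads (Trim Galore 0.6.10), aligned them with HISAT2 to GRCm39, used featureCounts without strand to count pairs over exons, and deposited FPKM computed by their own script. They ran DESeq2 on counts, which were not used here. Genes averaging an FPKM of 0.5 or more entered as log2(FPKM + 0.5), and the 2 SN were compared with the 2 NSN libraries with limma 3.58.1 in R 4.3.3 (eBayes with a trend), Benjamini-Hochberg adjusted over all 11672 genes tested, two-sided. A call was an adjusted p below 0.05 with a change of 1.2-fold or more. The scripts were tested on simulated data.

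Whole read pairs were recovered from the FPKM through library totals derived from 5 mitochondrial tRNA genes, for 99.83% of the listed genes (tolerance 0.01 read pairs), and limma-voom was run on them. Gene positions, canonical lengths and shared exonic bases came from a later GENCODE release on GRCm39, promoters from RefSeq. Named beside the members were, in each list, genes past both thresholds and the gene with the highest FPKM, which could be a member. Gnas, Gnb4, Pde8a, Pde4d, Pde1b, Pkig, Pkib, Akap7, Akap8, Akap9, Arfgef2, Cdc25b and Rapgef4 were named after their values were seen. Alternatives were other pseudocounts (0.1 and 1), filters, scalings (by the median, by quantiles, or without the 100 most abundant genes), no variance trend, a length correction, the replicate number as a block, and each library left out. Other gene lengths and the counts of members that do not overlap under other scalings were added after the data were seen.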

Additional observations from a re-analysis of the deposited data

How the results depend on the processing

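With 2 libraries per configuration, counts of calls moved with the processing. For all genes, the 926 calls became 1496 for genes averaging an FPKM of 5 or more, 257 with median scaling, 230 with quantile normalization, 187 without the 100 most abundant genes in the totals, 118 with the length correction, 2313 and 1720 on read pairs with total and median scaling, and 0 with all listed genes (4092 at an unadjusted p under 0.05) or without the variance trend (3449), by limma. Of these calls 75.1% were higher in SN, and 30.4% with median scaling. Leaving out single libraries gave 0 to 1685 calls, 0 without NSN replicate 1, 1685 without NSN replicate 2, 148 without SN replicate 1 and 11 without SN replicate 2, where the lone library of a group is assumed to vary like the others. The 0 members called became 1 for genes averaging an FPKM of 5 or more, 2 and 1 on read pairs with total and median scaling, and 0 to 1 with single libraries left out. The 2 other pathway genes called became 6 for genes averaging an FPKM of 5 or more, 13 and 8 on read pairs, 0 to 8 with single libraries left out, and 0 with all listed genes, median scaling, quantile normalization, totals without the 100 most abundant genes, no variance trend and the length correction. The cause of these differences was not tested.

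The replicate differences of NSN and SN had a correlation of -0.07 over the genes tested. Whether libraries with the same replicate number share a source cannot be told from this value. With the replicate block 422 genes, 0 members and 0 other pathway genes were called. With the block and the length correction, 0 genes (2766 at an unadjusted p under 0.05, limma) and 0 other pathway genes were called. In both fits with a length correction, with and without the block, Prkacb turned to -0.16 and Adcy8 to -0.17.

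The signs of Prkaca and Prkacb were not fixed. Prkaca turned to -0.077 with median scaling, -0.088 with quantile normalization, -0.023 without the 100 most abundant genes and -0.084 on read pairs with median scaling, and Prkacb to -0.085, -0.072, -0.053 and -0.15. Adcy8 turned to -0.073, -0.080, -0.024 and -0.093, and Rgs2 to 0.032 with quantile normalization. With single libraries left out, the log2 fold changes ranged from -0.11 to 0.22 for Prkaca, -0.15 to 0.17 for Prkacb, -0.55 to 0.10 for Adora2b and -0.044 to 0.14 for Adcy8. Among single-gene results under other settings, libraries left out aside, 162 kept their direction and call, 16 were no longer called, 8 were newly called and 17 changed sign. Read pairs of 11 to 160 limit Adcy3, Adcy9, Prkaca and Prkacb.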
